A study of Mus musculus with 6 samples.

Results

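The genes described are the vascular connexins Gja1, Gja4, Gja5 and Gjc1, 4 of the 22180 genes that the array annotation ties to a probe set of a single gene symbol. Each had 1 probe set that carried its symbol and no other, and all 4 lay above the background of the arrays, as did 15312 genes in all. Connexins are membrane proteins that assemble into hemichannels. Hemichannels of neighbouring cells dock to form gap junctions, through which ions, calcium and small metabolites pass from cell to cell. In the vessel wall Gja4 (connexin Cx37) and Gja5 (Cx40) are known as connexins of arterial endothelium, Gja1 (Cx43) is found in endothelium at sites of disturbed flow, in smooth muscle and in many other cells, and Gjc1 (Cx45) is known mainly from smooth muscle and pericytes.

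The samples were blood endothelial cells sorted from the intestine of adult mice on a mixed C57BL/6 x 129 background. The knockout group was Apcfl//fl; Villin-CreERT2 (KO), in which tamoxifen activates a Cre recombinase under control of the villin promoter. This promoter drives expression in gut epithelium and not in endothelium, so that Apc, a brake on Wnt signalling, is deleted in epithelial cells. The control group was Apcfl//fl and is called WT in the labels, which name no Cre for it. Mice of both groups received tamoxifen daily for 5 days by subcutaneous injection, and the tissue was taken on day 6. Cells were sorted as live and CD31 positive after exclusion of CD45, EpCAM and gp38, and their RNA was amplified before hybridisation to Affymetrix Mouse Gene 2.0 ST arrays. There were 3 arrays in each group, called biological replicates in the labels, which do not say whether a replicate was 1 mouse or a pool. The comparison asked how the endothelium of an intestine that has acutely lost epithelial Apc differs from that of a control intestine. Values are log2 expression levels per probe set, and a change is knockout minus control on that scale.

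The sort label was checked on defining genes. Pecam1, which encodes CD31, had a mean of 11.4 in both groups, while Ptprc, for CD45, lay near the background level of 4.11. Pdpn, for gp38, was at 5.07 to 5.17 on the knockout arrays and 5.17 to 5.79 on the control arrays, above background on all 6 (-0.30 ± 0.18, adjusted p = 0.461). Epcam was below that level on the 3 knockout arrays and on control 1, but at 7.20 and 6.24 on controls 2 and 3. Apc changed little (-0.16 ± 0.14), which does not check the labels, since the deletion was made in cells that the sort excludes.

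To show the sequence in front of the genes whose expression is compared, the 250 bases before the RefSeq start of each gene were taken from the RefSeq promoter table of build GRCm38.p6, which held 3 of the 4 members. That of Gja1 is chr10:56377050-56377299 on the plus strand, that of Gja4 chr4:127314040-127314289 on the minus strand and that of Gja5 chr3:97032152-97032401 on the plus strand. They are written 5′ to 3′ along the gene. Capitals mark matches, on either strand, to 5 motifs of factors among the connexin regulators described further on, which are TGAGTCA (AP-1), GGTGTG (T-box), GGGCGG (Sp), GTGGGAA (RBPJ) and ACAAT (SOX).
Gja1: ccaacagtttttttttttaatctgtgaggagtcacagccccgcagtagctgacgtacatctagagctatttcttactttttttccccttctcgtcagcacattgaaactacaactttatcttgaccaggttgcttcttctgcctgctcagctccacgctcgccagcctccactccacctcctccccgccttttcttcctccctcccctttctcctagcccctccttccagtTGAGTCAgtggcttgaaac
Gja4: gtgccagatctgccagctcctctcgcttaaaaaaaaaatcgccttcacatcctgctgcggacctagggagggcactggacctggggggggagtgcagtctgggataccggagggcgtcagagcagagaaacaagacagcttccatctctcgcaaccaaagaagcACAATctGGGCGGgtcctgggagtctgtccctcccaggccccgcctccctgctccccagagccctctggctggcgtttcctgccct
Gja5: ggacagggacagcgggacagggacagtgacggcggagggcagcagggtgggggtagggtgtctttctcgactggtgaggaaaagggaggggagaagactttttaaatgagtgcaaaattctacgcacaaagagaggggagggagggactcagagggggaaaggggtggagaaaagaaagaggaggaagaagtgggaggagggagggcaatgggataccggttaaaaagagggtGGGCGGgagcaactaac
The window of Gja1 held 1 match, the AP-1 motif, which began 19 bases before the end of the window. Those letters occurred in 4.46% of the 32851 promoter windows of the same length. The window of Gja4 held a SOX and a Sp motif, and that of Gja5 a Sp motif, letters found in 27.7% (SOX) and 32.7% (Sp) of windows. None of the 3 held the T-box or the RBPJ motif, found in 16.3% and 5.42% of windows. The matches do not overlap each other. A match is a run of letters and was not measured as a binding site here.

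Gja1 was the vascular connexin that rose in the sorted cells of knockout mice. Its log2 level was 10.13, 9.78 and 10.02 on knockout arrays 1, 2 and 3, and 9.03, 9.38 and 9.33 on control arrays 1, 2 and 3. The groups did not overlap, with a gap of 0.40 between the lowest knockout and the highest control array, and control 1 was the lowest of the 6. The mean was 9.97 ± 0.18 (SD, n = 3) in the knockout and 9.25 ± 0.19 (SD, n = 3) in the control. The change was 0.73 ± 0.12 (standard error of the limma fit, adjusted p = 0.019), a 1.66-fold rise with a 95% interval of 1.37 to 2.00. Of the 15312 genes tested, 97.0% had a smaller change in either direction, and Gja1 was number 154 in order of p. In bulk RNA, more cells of a kind and more transcript per cell cannot be told apart.

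The call of Gja1 rests on all 6 arrays together. The change kept its sign with any single array left out, between 0.62 and 0.83. It did not pass without knockout 1 (adjusted p = 0.0634), without knockout 3 (adjusted p = 0.0821) or without control 3 (adjusted p = 0.0593). Epithelial transcripts were highest on controls 2 and 3, and on control 1 the enterocyte genes described further on were still above every knockout array. Against control 1 alone, a fit that left 1 control array, the Gja1 change was 0.95 and the median enterocyte change was -1.24. The part of epithelial transcripts in the Gja1 value was not tested.

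Gja4, the arterial connexin Cx37, was nearly level across the arrays. It measured 9.86, 9.89 and 9.92 on the knockout arrays and 9.95, 9.72 and 9.86 on the control arrays. The groups overlapped, and the knockout values lay within the range of the controls. The means were 9.89 ± 0.030 and 9.84 ± 0.12 (SD, n = 3 each), and the change of 0.046 ± 0.077 did not pass (adjusted p = 0.822 by limma). The 95% interval of the change ran from -0.13 to 0.22, or 0.915-fold to 1.17-fold.

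Gja5, the connexin Cx40 of arterial endothelium and of the conduction system of the heart, did not pass either. It measured 7.66, 7.87 and 7.54 on the knockout arrays and 8.01, 7.71 and 7.70 on the control arrays. The groups overlapped, with control 1 highest and knockout 3 lowest. Means were 7.69 ± 0.17 and 7.81 ± 0.18 (SD, n = 3 each), a change of -0.12 ± 0.13 (adjusted p = 0.722 by limma) with an interval of -0.41 to 0.18. A fall to 0.750-fold thus lies within the interval.

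Gjc1, the connexin Cx45 that smooth muscle and pericytes carry, measured 7.11, 6.94 and 6.98 on the knockout arrays and 7.17, 6.80 and 6.86 on the control arrays. Every knockout value lay inside the control range. Means were 7.01 ± 0.089 and 6.94 ± 0.20 (SD, n = 3 each), and the change of 0.065 ± 0.14 did not pass (adjusted p = 0.862 by limma; interval -0.24 to 0.37).

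**Figure D1:**
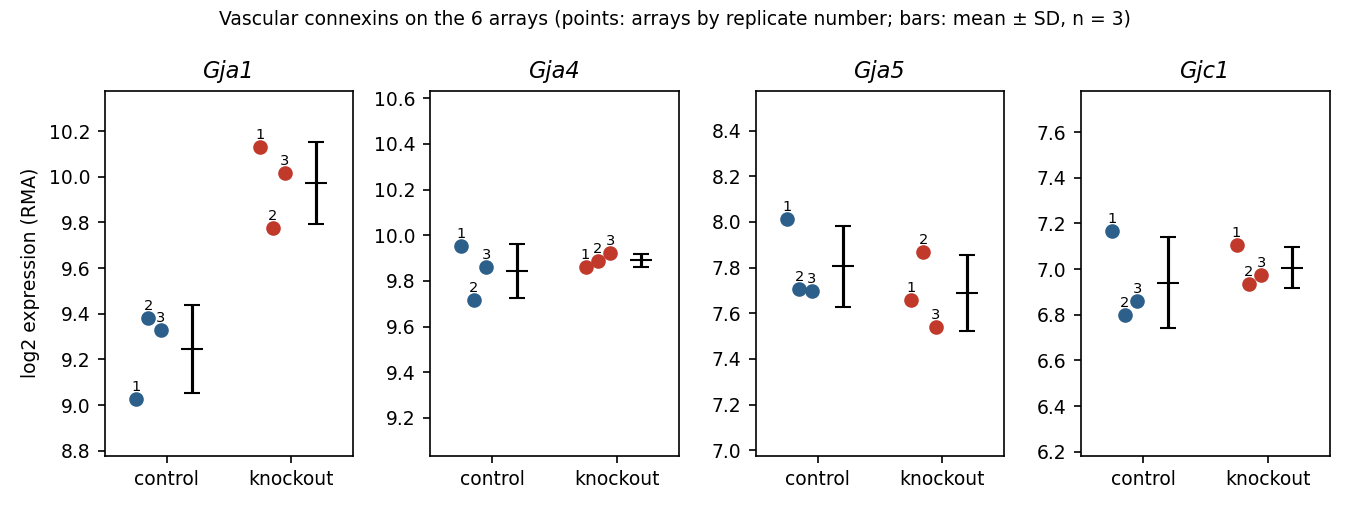
Log2 expression (RMA values) of Gja1, Gja4, Gja5 and Gjc1 on the 3 control and 3 knockout arrays; points are arrays marked with their replicate number, bars are mean ± SD (n = 3), and each panel spans the same range. The Gja1 arrays separate by group (9.78 to 10.13 against 9.03 to 9.38), and those of the other connexins overlap.

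In count, 1 of the 4 vascular connexins was called, in the upward direction, beside 2.57% of all genes tested (1.10% higher, 1.47% lower). The members were chosen with earlier results of these data known, so this count is no test of the family. The groups did not overlap for the same 1 member, beside 22.0% of all genes. The median change of the 4 was 0.056, against -0.017 over all genes, and their pooled standard deviations within groups ran from 0.087 for Gja4 to 0.19 for Gja1, against a median of 0.17 over all genes. Gja4, Gja5 and Gjc1 had changes that were larger in size than those of 17.9%, 41.9% and 24.7% of genes.

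Whether the connexins changed by different amounts was tested on the difference of 2 members within each array, over 6 pairs. Gja1 rose by 0.68 more than Gja4 (95% interval 0.11 to 1.25), by 0.85 more than Gja5 (0.055 to 1.64) and by 0.66 more than Gjc1 (0.012 to 1.31). The within-array differences of these 3 pairs did not overlap between groups, but all 3 contain Gja1, whose own groups did not overlap. They are thus not 3 separate results, and the share of non-overlap over all pairs of genes was not computed. The intervals are not adjusted over the 6 pairs. By a two-sided exact permutation test each had p = 0.10, adjusted 0.20 over the 6 pairs, and 3 arrays against 3 cannot give a p below 0.10. Among the other three connexins the differences of changes were smaller, at 0.16 for Gja4 minus Gja5 (interval -0.18 to 0.51), -0.019 for Gja4 minus Gjc1 (-0.27 to 0.23) and -0.18 for Gja5 minus Gjc1 (-0.53 to 0.17), with exact permutation p-values of 0.20, 0.80 and 0.40.

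Of 19 other genes of the connexin and pannexin families, 4 had no probe set of their own symbol and 7 lay below background. The 8 others were Gja3, Gjb1, Gjc3, Gjd2, Gjd3 and the pannexins Panx1, Panx2 and Panx3, which form channels in a single membrane and release ATP. By limma 0 of the 8 were called, and 0 had an unadjusted p under 0.05, beside 16.4% of all genes. Their changes ran from -0.25 to 0.18 with a median of -0.0062. The 2 with the smallest p were Gjb1, the connexin Cx32 of epithelium and liver, at means of 4.26 in the knockout and 4.50 in the control (-0.25 ± 0.16, adjusted p = 0.501), and Panx1, the pannexin of endothelium, at 6.74 and 6.57 (0.18 ± 0.13, adjusted p = 0.576). The Gjb1 level was close to the background of 4.11.

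**Figure D2:**
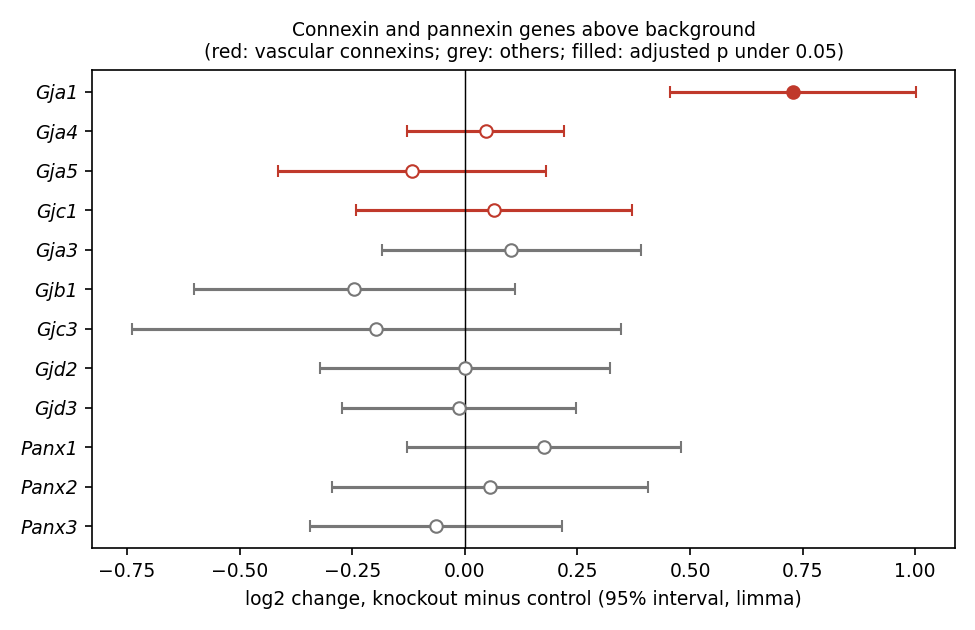
Log2 change (knockout minus control) with its 95% interval from limma for the 12 connexin and pannexin genes above background; red marks the vascular connexins, grey the others, and a filled point an adjusted p under 0.05. Gja1 alone of the 12 is filled, at 0.73, and the intervals of the 11 others include 0.

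Proteins that bind, anchor, modify or degrade connexins were next. Of 38 listed partners, 32 were tested, and limma called 0 of them. At an unadjusted p of 0.05 there were 15 (7 higher, 8 lower), beside 16.4% of all genes, and the median change was -0.027. The 2 with the smallest p were Tubb5, a beta-tubulin, at 0.30 ± 0.072 (adjusted p = 0.0643), and Cdh2, which encodes N-cadherin, the adhesion molecule that joins endothelium to mural cells, at -0.91 ± 0.23 (adjusted p = 0.0757). On the knockout arrays Cdh2 measured 4.88, 4.01 and 4.15, so that arrays 2 and 3 lay close to the background of 4.11. Its control values were 5.07, 5.29 and 5.40. Further partners are named here after their values were seen. Tjp1, for the scaffold ZO-1 that binds the tail of Cx43, was at -0.28 ± 0.070 (adjusted p = 0.0813). Dbn1, for the actin-binding drebrin, was at 0.44 ± 0.11 (adjusted p = 0.0845), and Nedd4, a ubiquitin ligase that promotes loss of Cx43 from the membrane, was at -0.25 ± 0.072 (adjusted p = 0.116). None of these values passed, so no partner of the list is called higher or lower under the reported setting. With the stricter background filter 1 partner was called higher, and likewise 1 with quantile normalization repeated. With the mean of all probe sets of a gene 1 was called lower, and likewise 1 without knockout 1.

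Among 42 tested genes that regulate connexin transcription or take part in flow sensing, 1 rose and 3 fell, beside 1.10% higher and 1.47% lower of all genes, with a median of -0.060. Tbx3, a T-box repressor known to hold down Gja1 and Gja5 in the heart, measured 8.41, 8.57 and 8.64 on the knockout arrays and 9.27, 8.99 and 9.14 on the control arrays. Those groups did not overlap, and the change was -0.59 ± 0.10 (adjusted p = 0.0237). Jun, a subunit of AP-1, had means of 11.1 in the knockout and 11.4 in the control, a fall (-0.39 ± 0.075, adjusted p = 0.0317). Cdkn1b, which encodes the cell cycle inhibitor p27 that lies below Notch and Cx37 in flow-exposed endothelium, fell by 0.42 on the log2 scale (standard error 0.086, adjusted p = 0.0406). Eng, a TGF-beta co-receptor, rose by 0.26 ± 0.044 (adjusted p = 0.0211).

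Each of these 4 calls was also lost with some single arrays left out. Without the mean-variance trend all 4 were lost (adjusted p from 0.0703 to 0.247 by limma). With single arrays left out each kept its sign. Tbx3 and Jun were called without control 2 and in no other such fit (adjusted p up to 0.087 and 0.123, both without control 3). Cdkn1b was called only without control 1 (adjusted p up to 0.132, without control 2), and Eng only without knockout 1 and without control 1 (adjusted p up to 0.0808, without knockout 3). The list had 0 calls without knockout 2, without knockout 3, without control 3 and against control 1 alone. Jun and Junb are also genes that tissue digestion can induce, and control 1 was the highest array for Jun (11.55 against 11.30 and 11.49 on controls 2 and 3). The part of handling in these values was not tested.

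Flow and Notch genes of the same list are named here after their values were seen. Klf2 and Klf4, transcription factors induced by laminar flow, were at -0.15 ± 0.079 (adjusted p = 0.399) and -0.11 ± 0.11 (adjusted p = 0.68). Notch4, a receptor of arterial endothelium, was at 0.45 ± 0.10 (adjusted p = 0.0604), its ligand gene Dll4 at 0.057 (adjusted p = 0.828), and Sox17, an arterial transcription factor, at -0.52 ± 0.12 (adjusted p = 0.0644). None of these 5 genes passed.

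Since Gja4 and Gja5 mark arterial endothelium, the arterial and venous genes were set beside them. Of 40 arterial genes tested, 0 rose and 1 fell, with a median change of -0.077. The fall was in Glul, glutamine synthetase (-0.35 ± 0.059, adjusted p = 0.0211), and Alox12, an arachidonate lipoxygenase, had the second smallest p (-0.81 ± 0.18, adjusted p = 0.0567). Of 20 venous genes, 1 rose, Lrg1, an angiogenic glycoprotein (0.56 ± 0.097, adjusted p = 0.0227), and 0 fell, with a median of 0.016. Aplnr, the apelin receptor, was at -0.57 ± 0.15 (adjusted p = 0.0966). These counts stand beside 2.57% of all genes called. At an unadjusted p of 0.05 by limma there were 14 arterial genes (4 higher, 10 lower), beside 16.4% of all genes. Venous genes at that p numbered 5 (2 higher, 3 lower). The arterial list mean was 9.34 to 9.36 on the knockout arrays and 9.37 to 9.60 on the control arrays. Glul was not called without knockout 2 or 3 or without control 2 or 3 (adjusted p up to 0.087), and Lrg1 was not called without knockout 1, 2 or 3 or without control 2 (adjusted p up to 0.0727).

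**Figure D3:**
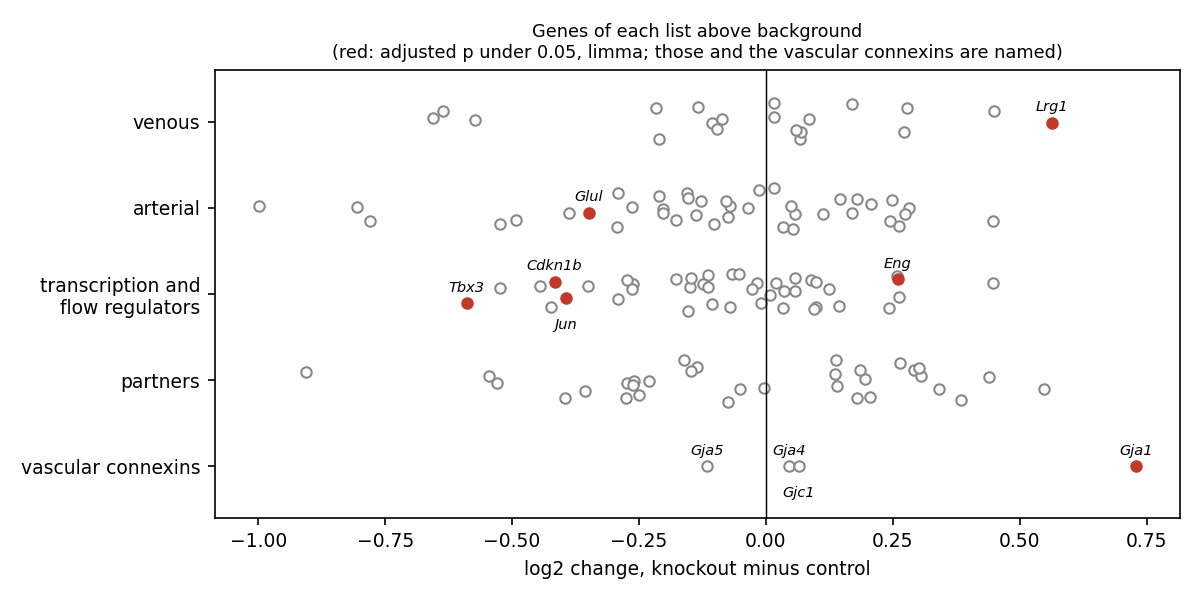
Log2 change (knockout minus control) of each gene above background in the vascular connexins and in 4 related lists, with called genes in red. Gja1 at 0.73 lies to the right of every gene of the partner, regulator, arterial and venous lists, whose highest changes are 0.55, 0.45, 0.45 and 0.56.

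Because connexins are shared among cell types, markers of other cells that may remain after the sort are given beside the Gja1 rise. Over 20 pan-endothelial genes the median change was 0.15, against -0.017 over all genes. Their changes ran from -1.28 to 0.35, with 14 above 0 and 6 below. Eng and Cd34 were called higher and Cldn5 lower, the last 2 named after their values were seen, beside 2.57% of all genes. At an unadjusted p of 0.05 there were 11 (10 higher, 1 lower), beside 16.4% of all genes. With the stricter background filter 6 were called higher, and with single arrays left out 0 or 1. Their list mean was 10.85 to 10.91 on the knockout arrays and 10.78 to 10.86 on the control arrays. The brightest were Plvap (a change of 0.25 ± 0.056, adjusted p = 0.0527), Cdh5 (-0.052 ± 0.044, adjusted p = 0.623) and Eng.

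Mural genes, the markers of smooth muscle and pericytes, had 20 of 23 changes below 0. Of 23 tested, 10 fell and 1 rose, beside 1.47% lower and 1.10% higher of all genes, with a median of -0.70. The log2 of their summed level was 12.95 to 13.28 on the knockout arrays and 13.64 to 13.91 on the control arrays, and 0 of the 23 lay below background. The brightest were Rgs5, Acta2 and Myl9, with changes of -0.70, -0.82 and -0.86 (adjusted p from 0.0185 to 0.0291). Mcam, the member that rose (0.51 ± 0.074, adjusted p = 0.0116), is also an endothelial gene and is named after its value was seen. Gjc1, the connexin of those cells, kept overlapping groups beside these falls. The effect of a changed share of mural RNA on the Gja1 value was not tested. With single arrays left out, the mural genes called lower were 3 without knockout 3, 4 without control 3, 6 without knockout 2, control 1 or control 2, and 9 without knockout 1.

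Enterocyte and other epithelial genes were lower in the knockout as well, with all 17 and all 12 changes below 0. Of 17 enterocyte genes 14 fell and 0 rose, beside 1.47% of all genes lower, with a median of -2.98, and the log2 of their summed level was 9.82 to 10.2 on the knockout arrays and 12.0 to 13.8 on the control arrays. The brightest were Fabp2, Fabp1 and Rbp2, at -3.29, -3.57 and -3.32. Without knockout 3 or control 3, 5 enterocyte genes were called lower, without knockout 2 there were 6, without knockout 1 or control 2 there were 7, and without control 1 there were 17. Of 12 general epithelial genes 3 fell and 0 rose (median -1.31, log2 of the sum 8.73 to 9.10 against 9.60 to 11.2), the falls being in Phgr1, Muc13 and Lgals4, of which the first and second are named after their values were seen. The brightest were Lgals4 (-2.14), Krt8 (-1.63, adjusted p = 0.082) and Krt19 (6.18 in the knockout and 7.18 in the control, adjusted p = 0.0601). Of the general epithelial genes 0 were called without knockout 2, knockout 3 or control 3, 1 without knockout 1 or control 2, and 8 without control 1. Control 1 was the lowest control for enterocyte genes and for Gja1. The Gja1 change was 0.95 without controls 2 and 3, a fit that left 1 control array, and 0.73 with them. The effect of a changed share of epithelial RNA on the Gja1 value was not tested.

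Lymphatic endothelial genes, whose cells also carry connexins, were also set beside Gja1. The gate against gp38, a protein of lymphatic endothelium, would remove these cells, and its gene Pdpn had means of 5.11 in the knockout and 5.42 in the control. Of 9 tested, 2 rose and 0 fell, beside 1.10% of all genes higher, and 2 more lay below background, with a median of 0.18. The log2 of their summed level was 10.83 to 10.96 on the knockout arrays and 10.5 to 10.8 on the control arrays. The rises were in Flt4, a VEGF receptor found on lymphatic and on sprouting blood endothelium (0.65 ± 0.091, adjusted p = 0.0104), and Lyve1, a hyaluronan receptor (1.13 ± 0.23, adjusted p = 0.0406), the latter named after its value was seen. The other bright members were Clca3a1 (0.24, adjusted p = 0.277) and Fgl2 (-0.51, adjusted p = 0.0546). The defining transcription factor gene of the lineage, Prox1, was close to background in both groups, with means of 4.42 and 4.37. The part of lymphatic transcripts in the Gja1 value was not tested. Flt4 did not pass with knockout 3 left out (adjusted p = 0.0546), and Lyve1 passed only without knockout 1 among the arrays left out singly.

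Fibroblast genes had 1 fall and 0 rises among 14 (median 0.058, log2 of the sum 10.1 to 10.6 on the knockout arrays and 10.3 to 10.7 on the control arrays). Col1a2, Adamdec1 and Dcn were the brightest, at -0.83 (adjusted p = 0.0433), 0.41 (adjusted p = 0.485) and -0.074 (adjusted p = 0.916). With single arrays left out 1 fibroblast gene was called lower without knockout 1 and 0 in the other 5 fits, and 0 were called with no filter on low values or without the mean-variance trend. Interstitial cells of Cajal, the pacemaker cells of the gut wall, use gap junctions too. Of 8 of their genes, Ednrb rose (1.36 ± 0.18, adjusted p = 0.00932) and Gpr20 fell (-0.86 ± 0.15, adjusted p = 0.0221), while Kit, the defining receptor of these cells, was at 6.56 and 6.43 (adjusted p = 0.687). Without knockout 3 the list had 0 calls, and without knockout 2, control 1 or control 2 it had 1 higher and 0 lower. Ednrb, an endothelin receptor, is also made by endothelium, and it was the brightest gene of this list, whose log2 sum was 10.6 to 10.8 on the knockout arrays and 9.74 to 10.2 on the control arrays. Of 21 leukocyte genes limma called 0, with 6 at an unadjusted p of 0.05 (2 higher, 4 lower), beside 16.4% of all genes (median -0.012, log2 of the sum 11.7 to 12.7 against 11.7 to 12.0), and the brightest were Ighm, Jchain and Cd68, at 0.53, 0.41 and 0.054. Changes of the leukocyte list ran from -1.87 to 0.53, with 11 of the 21 below 0.

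**Figure D4:**
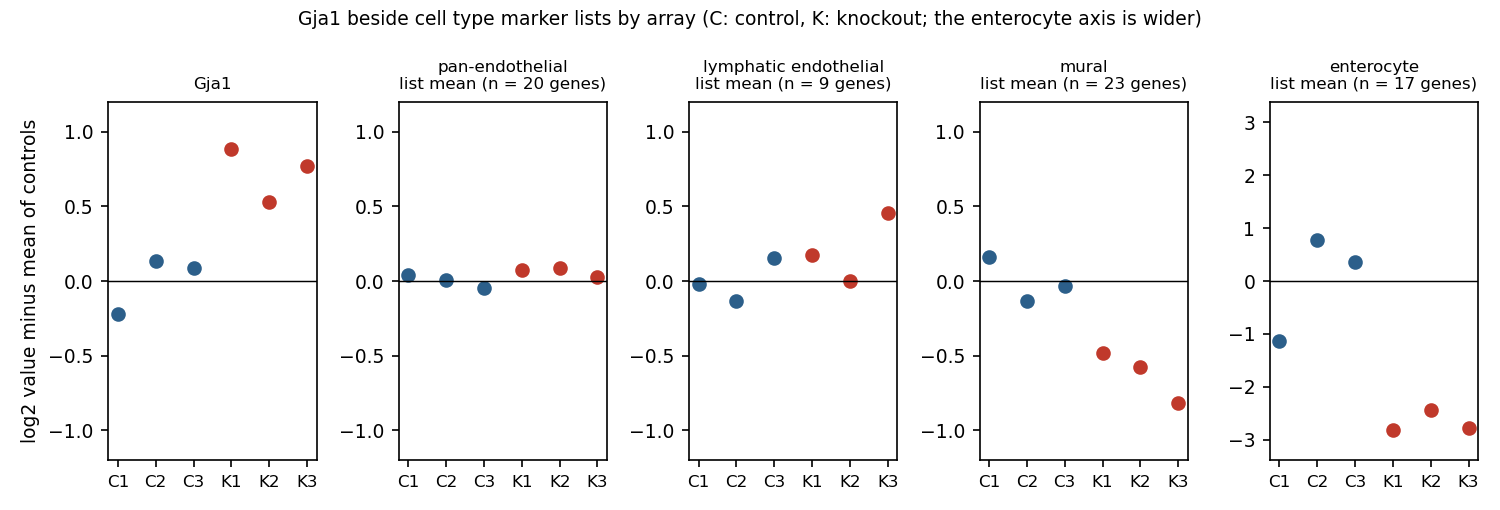
Log2 value of Gja1 and mean log2 value of 4 cell type marker lists on each array, less the mean of the 3 controls; C is control, K is knockout, and the enterocyte panel has a wider axis. Gja1 is higher on the knockout arrays, mural and enterocyte genes are lower, and the pan-endothelial mean is 10.85 to 10.91 on the knockout and 10.78 to 10.86 on the control arrays.

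The genes whose values ran most like each connexin were found by Pearson correlation over the 6 arrays, among about as many candidates for each (6629 for Gja1, 6630 for the others) with a range of at least 0.5. For Gja1 they were Zfp598, a ubiquitin ligase of stalled ribosomes (r = 0.996), Dysf, the membrane repair protein dysferlin (r = 0.990), and Shkbp1 (r = 0.990). Dysf changed by 0.71 ± 0.099 (adjusted p = 0.0104), with means of 9.48 in the knockout and 8.77 in the control, close in size to Gja1. Zfp598 (0.33, adjusted p = 0.164) and Shkbp1 (0.47, adjusted p = 0.109) had smaller changes that did not pass.

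For Gja4 the nearest were Rpgrip1l, a gene of the ciliary transition zone (r = 0.974), Insc (r = 0.973) and Eea1, an early endosome tether (r = 0.972). For Gja5 they were Samd12 (r = 0.987), Fam81a (r = 0.985) and Lysmd4 (r = 0.984), and for Gjc1 they were Tfpi2, a protease inhibitor (r = 0.988), Tk2, a mitochondrial thymidine kinase (r = 0.967), and Plekhm2 (r = 0.963). None of these 9 genes passed, with changes between -0.32 and 0.19. With 6 arrays and so many candidates, correlations of this size describe these arrays only.

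Gja4, Gja5 and Gjc1 shared 1 feature of pattern. Control 1 was the highest of the 6 arrays for each of them, at 9.95, 8.01 and 7.17, and the lowest for Gja1, at 9.03. Against control 1 alone their changes were -0.062, -0.32 and -0.16, and none passed (adjusted p = 0.882, 0.579 and 0.81 by limma). Without control 1 they were 0.10, -0.014 and 0.18. The signs for Gja4 and Gjc1 thus depended on which controls were used, and those of Gja1 and Gja5 did not.

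**Figure D5:**
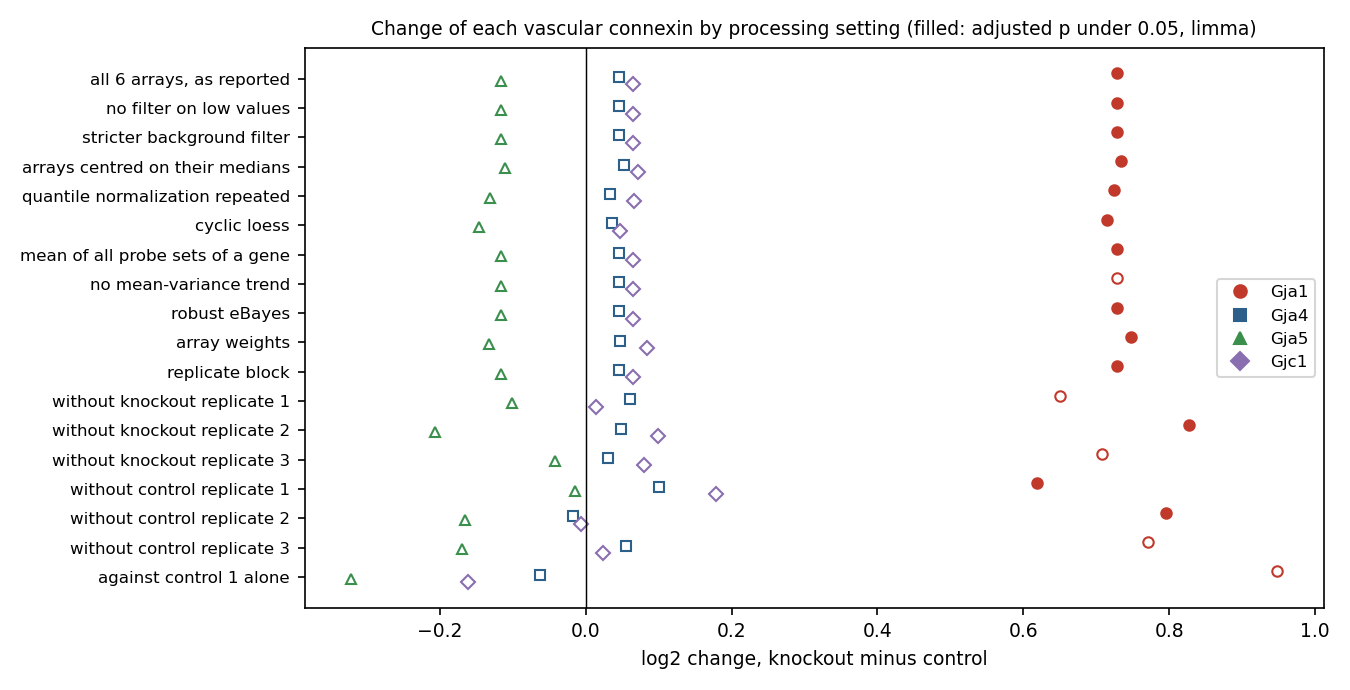
Log2 change (knockout minus control) of each vascular connexin under the reported setting and 17 others; a filled symbol has an adjusted p under 0.05 by limma. Gja1 stays between 0.62 and 0.95 and is filled in 13 of the 18 settings, while the other connexins stay between -0.32 and 0.18 and are never filled.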

How the data were processed

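Expression was measured on 6 arrays of sorted intestinal blood endothelial cells, 3 knockout and 3 control. The deposited values are log2 levels per probe set that, per the submitters' processing notes, the authors made with RMA in oligo (background correction, quantile normalization and probe summary); versions are not given in the sources used here. Array medians were nearly equal, and arrays have no read depth, so their number limits the precision. Of 41345 probe sets, 23521 carried 1 gene symbol in the platform annotation, 1814 several and 16010 none; the last 2 kinds were left out. Symbols were updated by gene identifier, and a gene with several probe sets was represented by its brightest. Genes were tested where the mean of that probe set over the 6 arrays exceeded 4.11, the 90th percentile of 1429 chemosensory receptor genes (olfactory, vomeronasal, taste).

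The comparison of groups used lmFit and eBayes (with trend) of limma 3.58.1 in R 4.3.3, two-sided, on all 15312 genes, with Benjamini-Hochberg adjustment at 0.05. The procedure was tested on simulated data. Pairs of members were compared by exact permutation, with intervals from the spread of arrays within groups. Each member was also tested by exact permutation. Motifs were counted in Python 3.11.15 and plots drawn with matplotlib 3.10.9. Members and gene lists were chosen with earlier results of these data known. Named genes are the members, the called genes of the family, partner, regulator, arterial and venous lists or else the 2 with the smallest p, the 3 brightest of each cell type list, the 3 genes most like each member (predicted genes, clones and small RNAs left out), the sort markers and Apc; others are said to be named after their values were seen.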

Additional observations from a re-analysis of the deposited data

How the results depend on the processing

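The changes of the 4 connexins were recomputed under 19 alternatives. Gja1 kept its direction in each and its call in 13. The call was lost without the mean-variance trend (0.73, adjusted p = 0.067), at a threshold of 0.01 (0.73, adjusted p = 0.019), against control 1 alone (0.95, adjusted p = 0.0745), a fit that assumes the lone control varies like the knockouts, and with 3 of the 6 single arrays left out (0.62 to 0.83 over the 6). Gja4 turned to -0.062 and Gjc1 to -0.16 against control 1 alone; with single arrays left out they ran from -0.017 to 0.10 and from -0.0068 to 0.18. Gja5 stayed between -0.32 and -0.014. The count of called genes was 393, and 139 without the trend, 52 against control 1 alone, 68 at a threshold of 0.01, 768 at 0.10 and 91 to 379 with single arrays left out. The causes were not tested.

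With the replicate number as a block, Gja1 was at 0.73 (adjusted p = 0.037) and 394 genes were called. Over all genes, deviations of same-numbered arrays correlated at -0.0209, -0.00742 and 0.0388. These values cannot decide whether the numbers pair the arrays, since a pairing may affect only some genes. For 19 called genes of the related, mural and lymphatic lists, 361 recomputed changes kept their sign, and 117 of them lost the call. Gja3 and the other dim family members are limited by signal close to background.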

Other observations

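A further probe set carried the symbols of both Gpr89 and Gja5 and was left out of the description of Gja5, since it cannot be tied to 1 gene. It measured 6.95, 7.47 and 7.16 on the knockout arrays and 7.57, 7.72 and 7.83 on the control arrays. The groups did not overlap, unlike those of the probe set of Gja5 alone, and the change was -0.51 ± 0.16 (adjusted p = 0.238 by limma over 25744 probe sets above background). Which of the named genes it reports was not tested.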
